A study of Mus musculus with 9 samples.

Results

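The genes described here are those by which cholinergic interneurons of the striatum are recognised, read in the striatum of 9 mouse embryos at E17.5. The members were 8 genes given by name, Chat, Slc18a3, Slc5a7, Slc17a8, Lhx8, Gbx2, Zic4 and Ache, and each was found once among the 44886 Ensembl genes counted in every embryo, by the symbol that GENCODE M21 gives to its identifier. They were chosen by name and function and not by a measured value, although earlier results of these data were known. All 8 were among the 16368 genes that passed the filter on low counts.

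Striatal RNA of 3 Control embryos, 3 Islet1Cre;Ebf1fl/- embryos and 3 Dlx5/6::Cre;Ebf1fl/- embryos was compared, each library labelled as 1 embryo. In both mutants one copy of Ebf1, a transcription factor of direct-pathway striatal projection neurons, is a null allele in every cell, and the other copy is floxed and lost where Cre has acted. Mutants came from Ebf1fl/fl mothers and fathers that carried Ebf1+/- with one of the Cre alleles, and according to the study's methods heterozygous embryos served as controls. Whether the controls carried a Cre is not given in the sources used here. The labels give the background of all 9 as C57BL/6, whereas the methods keep the Islet1Cre line on B6D2F1/J. Islet1Cre recombines in projection neurons of the direct pathway and in cholinergic interneurons, and Dlx5/6::Cre in all striatal projection neurons and interneurons, so that both lines reach the cells examined here. According to the study, Ebf1 itself is not made in striatal interneurons. The question put to the data was whether the genes of these cells differed between the genotypes.

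Cholinergic interneurons are a small population of large, tonically active neurons that supply most of the acetylcholine of the striatum. They arise in the medial ganglionic eminence and neighbouring ventral territories, and their development depends on the LIM-homeodomain factors Lhx8 and Isl1, with Gbx2 and Zic4 expressed in parts of the lineage. Acetylcholine is made from choline by choline acetyltransferase (Chat), loaded into vesicles by the vesicular acetylcholine transporter (Slc18a3), split in the synaptic cleft by acetylcholinesterase (Ache), and its choline is taken up again by the high-affinity choline transporter (Slc5a7). These interneurons also load glutamate into vesicles with VGLUT3, the product of Slc17a8.

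Chat and Slc18a3 form a single locus. In GENCODE M21 on GRCm38, Chat spans chr14:32408203-32465989 on the minus strand, and the intronless Slc18a3 lies inside it at chr14:32462438-32464850 on the same strand, with 0 exon bases shared. The other members lie apart from each other, Slc5a7 at chr17:54273590-54299034, Slc17a8 at chr10:89574020-89621253, Lhx8 at chr3:154306294-154330659 and Gbx2 at chr1:89927956-89931179, all on the minus strand, and Zic4 at chr9:91362413-91389348 and Ache at chr5:137287519-137294466 on the plus strand. All 8 are protein-coding. Of the exon bases of Gbx2, 946 (43.5%) are also exons of D130058E05Rik on the opposite strand, whose count is not analysed here. Since the strand setting of the counting is not given in the sources used here, reads of this non-coding gene may be among those of Gbx2.

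The 250 bases before the RefSeq start sites of the members (GRCm38.p6, 9 windows, since Slc17a8 has 2 starts) were read for 3 motifs on both strands. The window of Slc18a3 is shown because it lies within Chat beside the gene whose level followed that of Chat most closely among the members, the window of Slc5a7 because this gene of the same transmitter contrasts with it in base composition, and the window of Gbx2 because that gene was lower than the controls in every mutant embryo. Capitals mark matches to the GC box, GGGCGG or its reverse complement, and each sequence runs 5′ to 3′ on the strand of its gene, the minus strand, at chr14:32464851-32465100, chr17:54299035-54299284 and chr1:89931177-89931426.
Slc18a3: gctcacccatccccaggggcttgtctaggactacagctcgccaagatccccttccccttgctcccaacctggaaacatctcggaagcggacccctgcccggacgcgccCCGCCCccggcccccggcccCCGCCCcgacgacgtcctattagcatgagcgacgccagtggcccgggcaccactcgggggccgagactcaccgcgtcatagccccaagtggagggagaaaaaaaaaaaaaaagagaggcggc
Slc5a7: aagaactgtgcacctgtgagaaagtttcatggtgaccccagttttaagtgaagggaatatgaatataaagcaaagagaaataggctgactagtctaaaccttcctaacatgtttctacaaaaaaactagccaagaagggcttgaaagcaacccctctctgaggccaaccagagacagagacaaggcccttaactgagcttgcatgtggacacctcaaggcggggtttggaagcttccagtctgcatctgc
Gbx2: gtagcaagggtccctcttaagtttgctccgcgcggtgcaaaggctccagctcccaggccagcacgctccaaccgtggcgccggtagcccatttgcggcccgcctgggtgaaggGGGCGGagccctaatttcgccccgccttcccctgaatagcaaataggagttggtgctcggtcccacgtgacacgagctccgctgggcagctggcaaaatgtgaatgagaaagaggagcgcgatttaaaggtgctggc

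The motif of EBF factors, TCCC and GGGA parted by 2 bases of any kind, was found in 0 of the 9 windows, and 0.779% of 32851 windows of this length before mouse genes held it. TAATTA, a motif of LIM-homeodomain factors, stood only before the second start of Slc17a8, against 4.84% of all windows. The GC box occurred 2 times before Slc18a3, 1 time before Gbx2 and 4 times before Ache, and 32.7% of all windows held at least 1. G and C made up 66.0% of the bases before Slc18a3, 61.6% before Gbx2 and 73.6% before Ache, but 45.6% before Slc5a7, 46.0% before Lhx8 and 44.4% before Zic4, with a median of 52.4% over all windows. None of these 3 motifs overlaps another in the sequences shown.

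Counts on genes totalled 16.5 to 41.5 M per library. Raw counts of the members ran from 52 (Slc5a7 in Dlx5/6::Cre;Ebf1fl/- 1 and Gbx2 in Islet1Cre;Ebf1fl/- 3) to 1377 (Lhx8 in Islet1Cre;Ebf1fl/- 2), which sets a counting error of 13.9% at the lowest and 2.69% at the highest. Ebf1 was not lower in the mutants (normalized count 10620 on average in Control, 14140 in Islet1Cre;Ebf1fl/- and 13390 in Dlx5/6::Cre;Ebf1fl/-), so its reads do not check the genotypes. The study determined genotypes by PCR, and by immunostaining it found no Ebf1 protein in the striatum of either mutant at E17.5. The library Islet1Cre;Ebf1fl/- 3 held both Xist (4062 reads) and transcripts of Y-linked genes (1369 reads), and Control 3 held 12552 and 307, whereas each of the other 7 libraries held at most 4 reads of one of the 2 kinds. Whether these 2 libraries hold RNA of more than 1 embryo was not tested, and both enter the values of their groups. Without Islet1Cre;Ebf1fl/- 3 the median log2 fold change of the members in Islet1Cre;Ebf1fl/- over Control was -0.13, and without Control 3 it was 0.11, against -0.003 with all libraries.

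Levels are given as normalized counts, which are counts divided by the library's DESeq2 size factor, and between genes only per kb of exon. Per kb, Lhx8 was the highest member, with 318.5 ± 67.73 normalized counts per kb (SD over all 9 embryos), above 68.1% of the genes tested. Ache followed with 165.6 ± 37.98 per kb and exceeded Slc18a3, at 55.04 ± 14.29 per kb, in 9 of 9 embryos without overlap of their ranges. Below it came Gbx2 at 45.22 ± 9.198, Chat at 41.14 ± 8.602, Slc17a8 at 29.05 ± 5.903, Slc5a7 at 22.41 ± 7.835 and Zic4 at 16.8 ± 4.946 normalized counts per kb. Thus a transcription factor and the degrading enzyme, which other neurons make as well, stood above the genes of synthesis and transport. From Slc18a3 downwards, the ranges of all neighbours overlapped. Slc18a3 was above Gbx2 in 6 of 9 embryos and Gbx2 above Chat in 5 of 9, so that the order of these genes is not set by these data, whereas Chat over Slc17a8, Slc17a8 over Slc5a7 and Slc5a7 over Zic4 each held in 8 of 9.

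**Figure D1:**
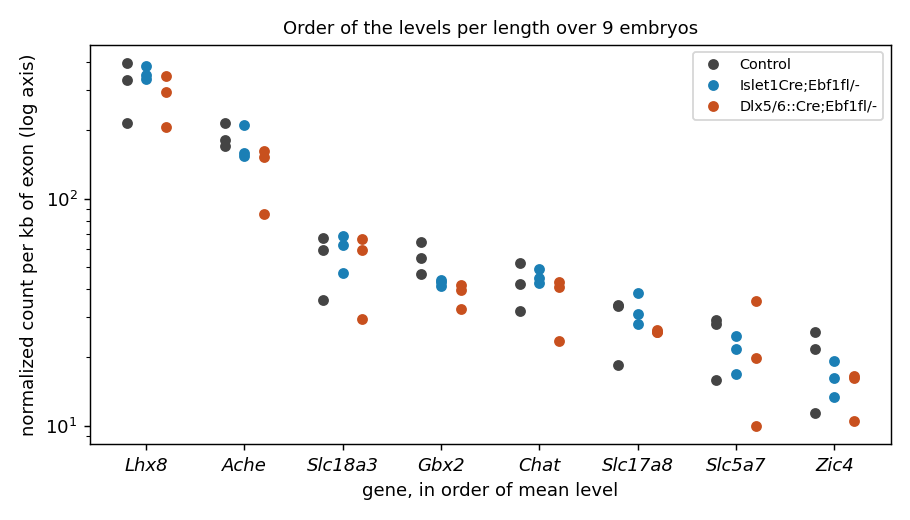
Normalized count per kb of exon (log axis) of each of the 8 genes in order of mean level, with 1 point per embryo coloured by genotype. Lhx8 and Ache lie above the other 6 genes, with Ache and Slc18a3 the only neighbours whose ranges are apart, and the points of Zic4 are the lowest on average at 16.8 per kb.

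None of the 8 genes passed the threshold in any comparison by edgeR's quasi-likelihood test (adjusted p below 0.05), and DESeq2 also called 0 of 8. Of all genes tested, 0.971% were called between Islet1Cre;Ebf1fl/- and Control, 2.39% between Dlx5/6::Cre;Ebf1fl/- and Control and 0.0% between the mutants (0 by edgeR, 18 genes by DESeq2). At an unadjusted p below 0.05, edgeR found 0 of 8 members in Islet1Cre;Ebf1fl/- against Control (7.93% of all genes), 2 of 8 in Dlx5/6::Cre;Ebf1fl/- against Control (15.5%) and 0 of 8 between the mutants (5.16%). The estimates were not all on the same side. In Islet1Cre;Ebf1fl/- 4 of 8 members had a log2 fold change below 0, with a median of -0.003 and a range of -0.38 to 0.18, against 50.5% of all genes below 0. In Dlx5/6::Cre;Ebf1fl/- 8 of 8 were below 0, with a median of -0.19 and a range of -0.54 to -0.06, against 47.7% of all genes below 0 and a median of 0.01. Between the mutants 7 of 8 were below 0 (46.7% of all genes), with a median of -0.25. These counts depended on single libraries. In Dlx5/6::Cre;Ebf1fl/- against Control, 5 of 8 were below 0 without Dlx5/6::Cre;Ebf1fl/- 1 (median -0.07), 6 of 8 without Control 2 and 7 of 8 without Control 3. In Islet1Cre;Ebf1fl/- against Control, 8 of 8 were below 0 without Control 1 (median -0.14), and without both Control 1 and Dlx5/6::Cre;Ebf1fl/- 1 the count was 8 of 8 in each mutant (medians -0.15 and -0.26), with none called. Both comparisons share the same 3 control embryos. Groups without overlap, mutants below controls, were seen for 1 of 8 members in Islet1Cre;Ebf1fl/- (7.28% of all genes) and for 2 of 8 in Dlx5/6::Cre;Ebf1fl/- (11.3%). In a fit within the prefixes of the embryo codes, IE or D, each mutant is compared only with controls of its own prefix. These are 2 for Islet1Cre;Ebf1fl/- and only Control 3 for Dlx5/6::Cre;Ebf1fl/-. Control 3 held both Xist and Y-linked reads, and its members had a median of 1.25 times their geometric mean over the 9 libraries. In that fit the medians over the members were 0.10 and -0.43, with 4 and 8 of 8 below 0. In bulk tissue, fewer cholinergic cells and less RNA per cell cannot be told apart.

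**Figure D2:**
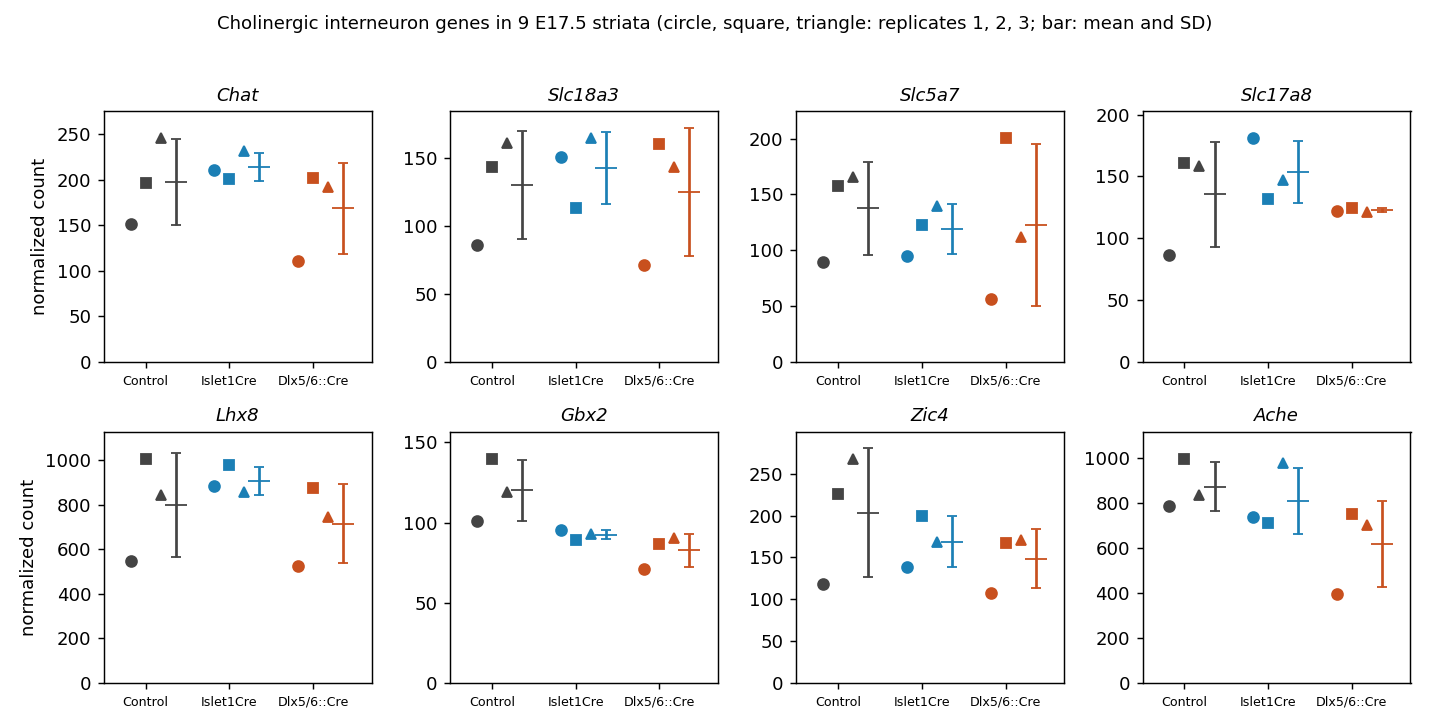
Normalized counts of the 8 genes, 1 panel per gene, by genotype; circles, squares and triangles are embryos 1, 2 and 3 of a genotype and the bars give mean and SD. For 7 of 8 genes the lowest point is Dlx5/6::Cre;Ebf1fl/- 1, and only for Gbx2 do the points of both mutants lie below all 3 controls.

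Chat, which encodes the enzyme that makes acetylcholine, had normalized counts of 151.1, 196.8 and 245.3 in Control 1 to 3, 210.7, 200.8 and 230.9 in Islet1Cre;Ebf1fl/- 1 to 3, and 111.2, 202.1 and 192.4 in Dlx5/6::Cre;Ebf1fl/- 1 to 3. The 3 genotypes overlapped, with all Islet1Cre;Ebf1fl/- embryos inside the range of the controls and only Dlx5/6::Cre;Ebf1fl/- 1 below it. The fold over Control was 1.08 in Islet1Cre;Ebf1fl/- (95% interval 0.742 to 1.57, adjusted p = 0.999) and 0.855 in Dlx5/6::Cre;Ebf1fl/- (95% interval 0.588 to 1.24, adjusted p = 0.697). Folds below 0.742 or above 1.57 were thus outside the interval for Chat in the first mutant, and smaller differences could not be told from the spread between embryos.

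Slc18a3, the vesicular transporter gene nested in Chat, had normalized counts of 85.93, 143.7 and 161.6 in Control, 150.9, 113.5 and 164.7 in Islet1Cre;Ebf1fl/- and 71.24, 160.3 and 143.5 in Dlx5/6::Cre;Ebf1fl/-. Its lowest values were in the same 2 libraries as those of Chat, Dlx5/6::Cre;Ebf1fl/- 1 and Control 1, and the groups overlapped. The fold over Control was 1.09 in Islet1Cre;Ebf1fl/- (95% interval 0.664 to 1.78, adjusted p = 0.999) and 0.961 in Dlx5/6::Cre;Ebf1fl/- (0.589 to 1.57, adjusted p = 0.954). Per kb of exon, the level of Chat was 0.647 to 0.908 times that of Slc18a3 over the 9 libraries, so this ratio within the locus ranged less than either gene.

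Slc5a7, the choline transporter that limits the supply for synthesis, was the most variable member, with a coefficient of variation of 35.0% over 9 embryos. Its normalized counts were 89.55, 157.6 and 165.5 in Control, 95.14, 122.7 and 139.6 in Islet1Cre;Ebf1fl/- and 56.13, 200.3 and 111.7 in Dlx5/6::Cre;Ebf1fl/-. The lowest and the highest embryo of all 9 were both Dlx5/6::Cre;Ebf1fl/-, and that group enclosed the other 2. Accordingly the intervals were wide, with a fold over Control of 0.864 (0.469 to 1.59, adjusted p = 0.999) in Islet1Cre;Ebf1fl/- and 0.895 (0.489 to 1.64, adjusted p = 0.886) in Dlx5/6::Cre;Ebf1fl/-.

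Slc17a8, the vesicular glutamate transporter of these interneurons, had normalized counts of 86.83, 160.9 and 158.7 in Control, 180.8, 132.0 and 146.8 in Islet1Cre;Ebf1fl/- and 122.0, 124.7 and 121.5 in Dlx5/6::Cre;Ebf1fl/-. All 3 Dlx5/6::Cre;Ebf1fl/- embryos lay below all 3 Islet1Cre;Ebf1fl/- embryos, an order that 5.39% of all genes showed, while both mutants overlapped the controls, the Dlx5/6::Cre;Ebf1fl/- embryos only through the low Control 1. Between the mutants the log2 fold change was -0.31 (SE 0.243, 95% interval -0.85 to 0.22, adjusted p = 0.873). It was the only member for which Dlx5/6::Cre;Ebf1fl/- 1 was not the lowest library.

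Ache, which encodes the enzyme that ends the cholinergic signal, had normalized counts of 786.9, 993.9 and 835.0 in Control, 736.6, 710.9 and 977.2 in Islet1Cre;Ebf1fl/- and 396.1, 750.3 and 702.8 in Dlx5/6::Cre;Ebf1fl/-. Every Dlx5/6::Cre;Ebf1fl/- embryo was below every control, as for 11.3% of all genes in that comparison, and Islet1Cre;Ebf1fl/- embryos lay on both sides of the lowest control. The log2 fold change over Control was -0.50 in Dlx5/6::Cre;Ebf1fl/- (SE 0.216, 95% interval -0.98 to -0.02, unadjusted p = 0.0418, adjusted p = 0.299) and -0.12 in Islet1Cre;Ebf1fl/- (SE 0.216, adjusted p = 0.999). Between the mutants it was -0.38 (95% interval -0.86 to 0.10, adjusted p = 0.868). Without Dlx5/6::Cre;Ebf1fl/- 1, in which Ache was at 396.1, the log2 fold change over Control was -0.27. Within the prefixes of the embryo codes, where Control 3 was the only control, it was -0.44.

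Lhx8, the LIM-homeodomain factor on which the cholinergic fate depends, had normalized counts of 545.4, 1005 and 845.6 in Control, 884.8, 976.9 and 855.5 in Islet1Cre;Ebf1fl/- and 523.5, 875.1 and 745.2 in Dlx5/6::Cre;Ebf1fl/-. The Islet1Cre;Ebf1fl/- embryos lay within the controls, and again Control 1 and Dlx5/6::Cre;Ebf1fl/- 1 were low. The fold over Control was 1.13 (0.810 to 1.59, adjusted p = 0.999) and 0.895 (0.640 to 1.25, adjusted p = 0.771) in the Islet1Cre and Dlx5/6::Cre mutants, respectively. Lhx8 is also expressed in the pallidal and septal territories beside the striatum. Of 6 pallidal markers past the filter, 0 were called by edgeR in any comparison (0, 1 and 1 at an unadjusted p below 0.05), and their sum is not used here because Penk, which striatal projection neurons express as well, holds much of it. Nkx2-1, a pallidal factor that is also counted among the cholinergic lineage factors, was at 748.3 ± 259.3 in Control, 1025.0 ± 171.7 in Islet1Cre;Ebf1fl/- and 928.1 ± 473.9 in Dlx5/6::Cre;Ebf1fl/- (SD, n = 3). Its level therefore cannot separate pallidal tissue from the interneurons. Of 7 septal and preoptic markers, a list that holds Lhx8 itself, 0 were called and 0 had an unadjusted p below 0.05. Their sum is not used here either, because Lhx8 holds much of it. The part of these tissues in the level of Lhx8 was not tested.

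Gbx2, a homeobox gene of the cholinergic lineage that is also strongly expressed in the thalamus, was the only member with no overlap between mutants and controls. Its normalized counts were 101.3, 139.6 and 119.3 in Control, 95.14, 89.39 and 93.07 in Islet1Cre;Ebf1fl/- and 71.24, 86.51 and 90.5 in Dlx5/6::Cre;Ebf1fl/-. All 6 mutant embryos were below all 3 controls, as for 4.08% of the genes tested. The log2 fold change over Control was -0.38 in Islet1Cre;Ebf1fl/- (SE 0.194, 95% interval -0.81 to 0.05, unadjusted p = 0.0765, adjusted p = 0.73) and -0.54 in Dlx5/6::Cre;Ebf1fl/- (SE 0.193, 95% interval -0.96 to -0.11, unadjusted p = 0.0183, adjusted p = 0.21). Within the prefixes of the embryo codes the log2 fold changes of Gbx2 were -0.39 and -0.53, the latter against Control 3 alone. Thalamic markers did not share one direction. Of 9 past the filter, a list that holds Gbx2, 1 was called lower in each mutant and 0 higher, and in Dlx5/6::Cre;Ebf1fl/- 4 were below 0 and 5 above, with a median log2 fold change of 0.12. The called gene was Prkcd, a protein kinase C gene, at 1523 ± 149.7 in Control, 816.9 ± 62.66 in Islet1Cre;Ebf1fl/- and 655.4 ± 32.73 in Dlx5/6::Cre;Ebf1fl/- (SD, n = 3, edgeR adjusted p = 0.00501 and 0.000606). Slc17a6, Lhx2 and Calb2 had log2 fold changes of 0.81, 1.21 and 0.66 in Dlx5/6::Cre;Ebf1fl/-, each with an unadjusted but not an adjusted p below 0.05. The sum of the list is not used here, since most of it is Foxp2 (4565 on average in Control), which striatal projection neurons express. The part of thalamic tissue in the level of Gbx2 was not tested.

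Zic4, a zinc-finger factor expressed in a ventral subset of the lineage, had normalized counts of 117.6, 225.4 and 267.4 in Control, 138.6, 199.4 and 168.2 in Islet1Cre;Ebf1fl/- and 107.9, 166.6 and 171.2 in Dlx5/6::Cre;Ebf1fl/-. Control 1 was among the lowest embryos and Controls 2 and 3 were the highest of all 9, so the groups overlapped only through Control 1. The log2 fold change over Control was -0.27 in Islet1Cre;Ebf1fl/- (95% interval -0.92 to 0.39, adjusted p = 0.999) and -0.45 in Dlx5/6::Cre;Ebf1fl/- (95% interval -1.10 to 0.20, adjusted p = 0.498). Its neighbour Zic1, transcribed from the opposite strand with 60 exon bases in common, was at no less than 5.36 times the level of Zic4 per kb of exon in each of the 9 libraries.

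**Figure D3:**
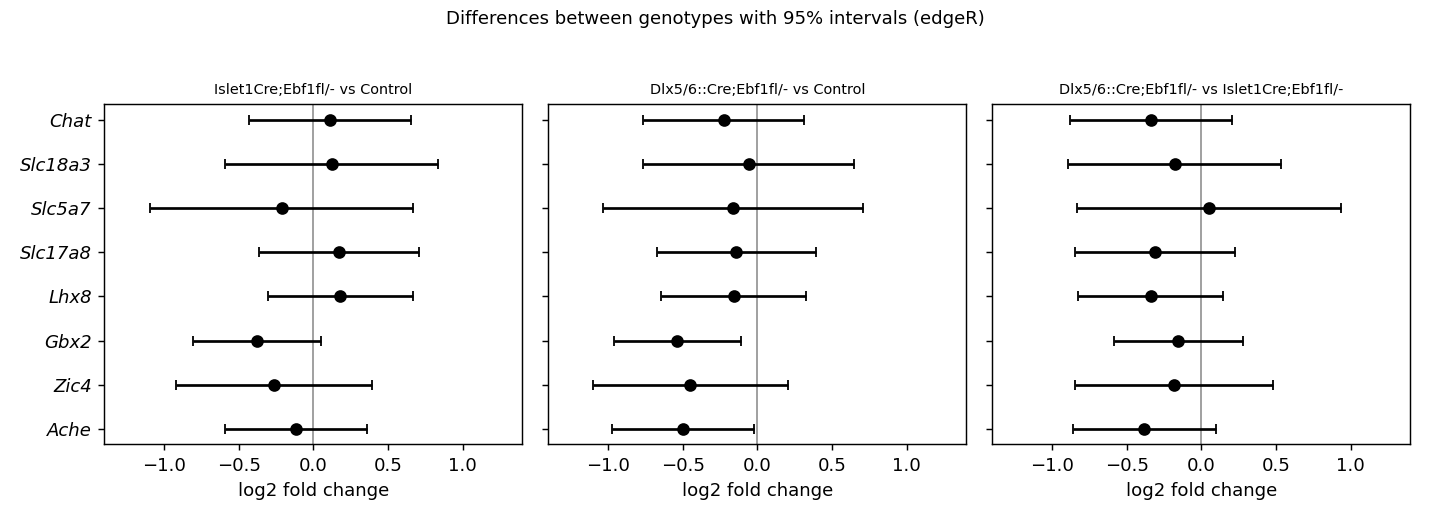
Log2 fold change of each gene (x axis) with its 95% interval from edgeR for the 3 comparisons, positive where the first genotype named was higher. Only the intervals of Gbx2 and Ache in Dlx5/6::Cre;Ebf1fl/- against Control leave out 0, at -0.54 and -0.50, and neither passed the adjusted threshold.

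Isl1, the factor whose locus drives Cre in Islet1Cre and which also marks direct-pathway projection neurons, had normalized counts of 5065, 6247 and 4713 in Control, 5415, 5668 and 4927 in Islet1Cre;Ebf1fl/- and 3979, 3908 and 4262 in Dlx5/6::Cre;Ebf1fl/-. The Islet1Cre;Ebf1fl/- embryos lay among the controls and the Dlx5/6::Cre;Ebf1fl/- embryos below both groups. Of all genes, 11.3% had the Dlx5/6::Cre;Ebf1fl/- embryos below all controls, and 5.39% had them below all Islet1Cre;Ebf1fl/- embryos. The fold over Control was 0.998 (95% interval 0.851 to 1.17) in Islet1Cre;Ebf1fl/- and 0.758 (0.647 to 0.888) in Dlx5/6::Cre;Ebf1fl/-, where the adjusted p was 0.0817.

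Most members were low together in Dlx5/6::Cre;Ebf1fl/- 1 and in Control 1. Dlx5/6::Cre;Ebf1fl/- 1 held the lowest level of 7 of 8 members, with a median of 0.616 times a gene's geometric mean over the 9 libraries, and Control 1 was lowest or next to lowest for 6 of 8, with a median of 0.728. The other 7 libraries had medians between 0.945 and 1.3. Control 1 and Dlx5/6::Cre;Ebf1fl/- 1 were also the libraries with the smallest sum over 15 markers of striatal projection neurons, 119000 and 113600, against 134400 to 145300 in the other 7. Much of this sum is Meis2, Bcl11b and Foxp1, at 29410, 24650 and 19630 on average in Control, so it mostly follows these genes. Meis2 averaged 39700 in Islet1Cre;Ebf1fl/- and 39010 in Dlx5/6::Cre;Ebf1fl/-. Of these 15 markers 1 was called by edgeR in any comparison, Foxp1, lower in Dlx5/6::Cre;Ebf1fl/- than in Control. The sum of 10 cortical neuron markers was 7426 in Dlx5/6::Cre;Ebf1fl/- 1, 3012 in Control 1, 3032 and 3411 in the other Dlx5/6::Cre;Ebf1fl/- embryos and 1223 to 2262 in the remaining 5. All 10 cortical markers had a log2 fold change above 0 in Dlx5/6::Cre;Ebf1fl/- against Control (median 1.01, 0 of 10 called by edgeR, 6 of 10 at an unadjusted p below 0.05). Erythroid markers, of which 0 of 7 past the filter were called, had their highest sum in Control 1, 17110 against 8098 to 12090 in the other 8 libraries. Of 7 meningeal markers past the filter 0 were called, and of 4 choroid plexus markers 1 was, Clic6, lower in Dlx5/6::Cre;Ebf1fl/- than in Control (74.21 ± 15.93 against 187.4 ± 47.21, SD, n = 3, edgeR adjusted p = 0.037). The choroid plexus markers did not share its direction. Only 4 of 8 listed passed the filter, and in that comparison 2 were below 0 and 2 above, with a median log2 fold change of 0.08. The part of cortical tissue or blood in the low cholinergic levels was not tested.

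**Figure D4:**
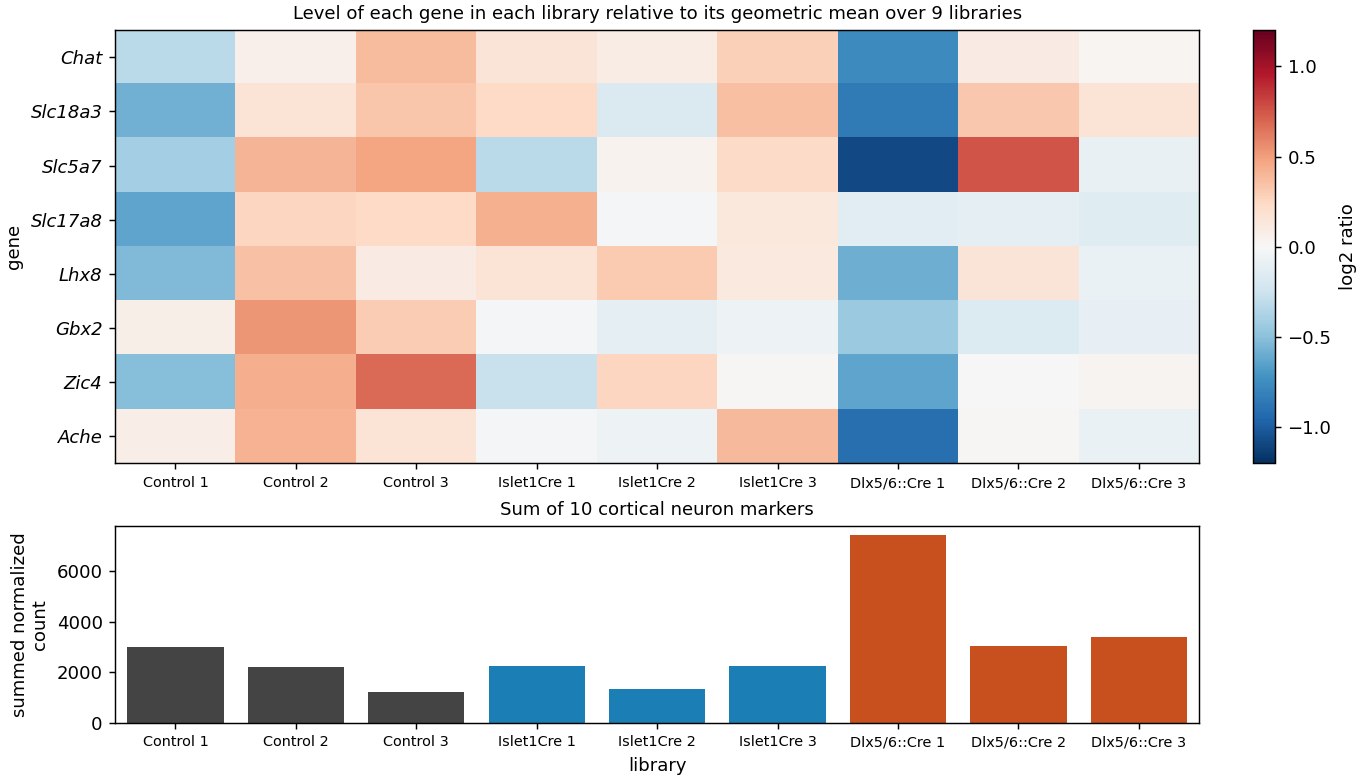
Top, log2 ratio of each gene in each library to its geometric mean over the 9 libraries (colour, red above and blue below). Bottom, summed normalized count of 10 cortical neuron markers in the same libraries, where the column of Dlx5/6::Cre;Ebf1fl/- 1, blue for all 8 genes, stands over the highest bar at 7426, and that of Control 1 is blue for 6 of 8.

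Over the 9 embryos, Pearson's r between log2 CPM was above 0 for 28 of 28 pairs of members, with a median of 0.698 and a range of 0.287 (Slc17a8 with Ache) to 0.93 (Chat with Slc18a3). The median over all pairs of 13154 genes with a mean normalized count of at least 50 was -0.001. The points share the libraries, and these r values describe 9 embryos without a test. After subtracting the genotype means the median between members was 0.76. Without that subtraction, the median of 0.698 became 0.53 without Dlx5/6::Cre;Ebf1fl/- 1 and 0.73 without Control 1, with 28 of 28 pairs above 0 each time. Without both libraries it was 0.36, with 24 of 28 pairs above 0 and r of Chat with Slc18a3 at 0.555.

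Among the 13153 genes ranked by likeness to Chat over the 9 embryos, Slc18a3 ranked 26, Lhx8 287, Slc5a7 329, Ache 390, Zic4 539, Slc17a8 1807 and Gbx2 2207. The 5 genes outside the members most like Chat were Eno2, the neuronal enolase (r = 0.979), Ddn, a postsynaptic protein gene (0.975), Th, tyrosine hydroxylase (0.959), Rasgef1c (0.958) and Grm3, a metabotropic glutamate receptor gene (0.957). The mean normalized count of these 5 genes over the 9 embryos ran from 374.3 for Th to 5308 for Eno2, and none was called in any comparison. The genes most like Slc5a7 were Ints14 (0.989), Gm21092 (0.978), Uhmk1 (0.974), Nceh1 (0.944) and Slc44a5, a choline transporter-like gene (0.943). No gene was among the 5 of both.

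Further lists of genes linked to cholinergic neurons also held no gene called by edgeR. They include genes that other striatal cells express as well, such as Isl1 of direct-pathway projection neurons. Of 13 lineage factors tested, which include Isl1, 0 were called by edgeR in any comparison, with 0, 2 and 3 at an unadjusted p below 0.05 for Islet1Cre;Ebf1fl/- against Control, Dlx5/6::Cre;Ebf1fl/- against Control and between the mutants. Ldb1, the cofactor of LIM-homeodomain proteins and the gene of this list with the highest normalized count, was at 10020 in Control, 9360 in Islet1Cre;Ebf1fl/- and 9504 in Dlx5/6::Cre;Ebf1fl/- on average. Of 8 further genes of acetylcholine handling, 0 were called (0, 2 and 0 at an unadjusted p), among them Acly, which makes cytosolic acetyl-CoA, with a fold over Control of 0.997 and 1.03 and 95% intervals of 0.874 to 1.14 and 0.901 to 1.17. The 2 with an unadjusted p below 0.05, both in Dlx5/6::Cre;Ebf1fl/- against Control, were the choline kinase genes Chka, with a fold of 0.843 (0.72 to 0.987, adjusted p = 0.284), and Chkb, with a fold of 0.804 (0.671 to 0.965, adjusted p = 0.233). In both, every Dlx5/6::Cre;Ebf1fl/- embryo was below every control, as for 11.3% of all genes in that comparison. Of all genes there, 15.5% had an unadjusted p below 0.05.

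Of 6 surface receptor and channel genes of these interneurons, 0 were called and 0 had an unadjusted p below 0.05 in any comparison. The substance P receptor gene Tacr1 was at 399.6 ± 59.26 in Control, 345.6 ± 23.15 in Islet1Cre;Ebf1fl/- and 308.7 ± 79.22 in Dlx5/6::Cre;Ebf1fl/- (SD, n = 3), and Hcn2, a channel gene of pacemaking neurons, averaged 955.0, 978.3 and 855.1. Of 16 nicotinic receptor subunits only 7 passed the filter, and 0 of these were called or had an unadjusted p below 0.05. Chrnb2, the main beta subunit of the brain, had a fold over Control of 0.949 (0.852 to 1.06) and 0.975 (0.876 to 1.09), while Chrng, a subunit of fetal muscle, was at 0 in all libraries.

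Of the 4 vesicular transporter genes related to Slc18a3 and Slc17a8 that passed the filter, 0 were called, with 0, 2 and 2 at an unadjusted p below 0.05. Slc32a1, the GABA transporter of the projection neurons, averaged 5830 in Control, 5958 in Islet1Cre;Ebf1fl/- and 6155 in Dlx5/6::Cre;Ebf1fl/-. Slc18a2, the monoamine transporter, was at 193.9 ± 42.89, 355.8 ± 121.3 and 385.1 ± 282.8 (SD, n = 3), with a log2 fold change over Control of 0.88 (SE 0.445, adjusted p = 0.725) in Islet1Cre;Ebf1fl/- and 0.99 (SE 0.444, adjusted p = 0.317) in Dlx5/6::Cre;Ebf1fl/-. Unlike the cholinergic transporter Slc18a3, its estimate was above 0 in both mutants, and the difference between these 2 genes was not tested.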

How the data were processed

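Striatal RNA of 9 embryos, 3 per genotype, was read as 1 library each, made from 400 ng of total RNA with a stranded mRNA kit. The authors deposited raw counts, the reads assigned to each Ensembl gene. Per the study's methods and the submitters' processing notes, the authors filtered reads, mapped them with STAR 2.4.0k (mm10), removed reads matching more than 1 position and counted with HTSeq 0.5.3, which lowers counts of genes with near-identical copies. The strand setting is not given in the sources used here.

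Genotypes and numbers came from the titles. Genes were matched to GENCODE M21 on GRCm38 (44133 of 44886 identifiers). In edgeR 4.0.16 (R 4.3.3), all 9 libraries entered 1 fit with 3 genotype groups and no covariate (filterByExpr with a minimum of 10, TMM, quasi-likelihood test, two-sided, Benjamini-Hochberg adjustment over 16368 genes, threshold 0.05), a step tested on simulated data. Normalized counts used size factors of DESeq2 1.42.0. Totals of 16.5 to 41.5 M reads and 3 embryos per genotype set the precision, and counting errors cover counting only. An exact permutation test of 3 against 3 cannot pass 0.05.

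The members, the marker and pathway lists and the tests were chosen with earlier results of these data known. Named genes were the 8 members, Ebf1, Isl1, from each further list the genes called and the 2 with the highest mean normalized count, and the 5 genes most like Chat and Slc5a7 by Pearson's r. Not all genes this rule allows are described, and Xist, Zic1, Nkx2-1, Slc17a6, Lhx2, Calb2, Chkb, Penk, Foxp2, D130058E05Rik and Chrng were named outside it, after their values were seen. Same-numbered embryos did not deviate together (mean r -0.0235 over 9 pairs, against 0.0122 for 18 pairs of different numbers), so the numbers were not taken as pairs. The settings varied were the test (DESeq2's Wald test), the scaling (DESeq2 size factors in edgeR), no filter or a minimum of 50, only the 6 samples compared, a block for the number, the code prefix and each embryo left out. The results of one further marker list are not reported here.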

Additional observations from a re-analysis of the deposited data

How the results depend on the processing

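The count of members called, 0 of 8 in each comparison, was the same under all 17 alternatives, 1 of which (leaving out Control 1 and Dlx5/6::Cre;Ebf1fl/- 1) was chosen after seeing the data, and the smallest adjusted p was 0.168. Of 408 recomputed log2 fold changes of members, 388 kept their direction and 20 turned it, none past the threshold. Without both Control 1 and Dlx5/6::Cre;Ebf1fl/- 1, Chat was at -0.0516, Slc18a3 at -0.115, Slc17a8 at -0.0707 and Lhx8 at -0.0292 in Islet1Cre;Ebf1fl/- against Control, and Slc18a3 at 0.107 between the mutants. The replicate block put Slc5a7 between the mutants at -0.0699 and the code prefix at -0.368, and the block changed no other direction or call of a member, with 0 of 8 called in each comparison. Leaving out single embryos gave, in Islet1Cre;Ebf1fl/- against Control, -0.0491 to 0.30 for Chat, -0.104 to 0.309 for Slc18a3, -0.0661 to 0.313 for Slc17a8 and -0.0305 to 0.38 for Lhx8, all below 0 only without Control 1. In Dlx5/6::Cre;Ebf1fl/- against Control it gave -0.283 to 0.218 for Slc18a3, -0.704 to 0.177 for Slc5a7 and -0.371 to 0.0388 for Lhx8, the first 2 highest without Dlx5/6::Cre;Ebf1fl/- 1 and Lhx8 without Control 2. Between the mutants it gave -0.395 to 0.103 for Slc18a3 and -0.493 to 0.39 for Slc5a7. The cause of these turns was not tested beyond the library left out. Gbx2 in Dlx5/6::Cre;Ebf1fl/- against Control had an unadjusted p below 0.05 in 16 of 18 fits, with adjusted p of 0.173 to 0.804, and Ache in 11 of 18, with adjusted p of 0.168 to 0.865. Over all genes, DESeq2 called 401, 862 and 18 where edgeR called 159, 392 and 0 in Islet1Cre;Ebf1fl/- against Control, Dlx5/6::Cre;Ebf1fl/- against Control and between the mutants. The edgeR fit without a filter called 311, 708 and 13, the 6 samples alone 259, 181 and 2, and the code prefix 61, 32 and 1.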

Other observations

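Interneurons of the GABAergic classes, which share the ventral origin of cholinergic interneurons, are not described above. Of 9 of their markers past the filter, Reln, which encodes the secreted protein reelin, was called lower in Dlx5/6::Cre;Ebf1fl/- than in Control (4799 against 1138 normalized counts on average, log2 fold change -2.07, SE 0.294, edgeR adjusted p = 0.00529). In Islet1Cre;Ebf1fl/- Reln averaged 2426, with a log2 fold change of -0.99 (adjusted p = 0.209, not called), and Reln was not called between the mutants (adjusted p = 0.868). By its own test, the study reported Reln, which it describes as enriched in the striatum, as strongly lower in both mutants. Normalized counts were also summed over all 10 listed markers, of which 9 passed the filter. The sums were 12960, 13590 and 16290 in Control, 10420, 9338 and 13920 in Islet1Cre;Ebf1fl/- and 6658, 9494 and 8961 in Dlx5/6::Cre;Ebf1fl/-. Much of this sum is Reln, Npy and Sst, at 4799, 3616 and 3526 on average in Control, so it mostly follows these genes. As for the cholinergic genes, the lowest sum was that of Dlx5/6::Cre;Ebf1fl/- 1. Lhx6, a factor of the medial ganglionic eminence, averaged 2236 ± 88.62 in Control, 2280 ± 279.5 in Islet1Cre;Ebf1fl/- and 1657 ± 239 in Dlx5/6::Cre;Ebf1fl/- (SD, n = 3), with a log2 fold change over Control of -0.43 in the last (95% interval -0.69 to -0.18, edgeR adjusted p = 0.0893), and was named after its values were seen.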
